A study of Homo sapiens with 6 samples.

Results

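The background of the 25-cycle Drop-seq library was the set of barcodes with a count sum of 20 or less. These barcodes were chosen by their own count sums, with no use of which transcripts they held. They numbered 310367 of the 323970 barcodes in the library (95.8%), out of 407779 barcodes in all 5 matrices of the series, and they held 1233086 of 2311090 unique molecular identifier (UMI) counts (53.4%). A UMI is a random tag joined to an RNA molecule as it is captured, by which PCR copies of that molecule are recognised. The 1000 barcodes of largest count sum, as many as the label gives cells, served as the cells, with sums from 141 to 33160. Another 12603 barcodes lay between these groups.

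The library came from a mixture of human and mouse myeloma cells labelled JJN3 and 5TGMG1 (5TGM1 in the methods), captured with barcoded beads in droplets on the Nadia system, amplified with 25 PCR cycles and read on a nanopore instrument. According to the study's methods, far fewer human than mouse cells were loaded, no cell was treated, and the Drop-seq beads carried barcodes and UMIs built from blocks of identical bases. The series held 6 samples in 6 groups of 1, and the Drop-seq libraries of 30 and 35 cycles are used here for a second look at the same genes. As each group was 1 library, nothing was tested between replicates. Intervals in brackets are at the 95% level and reflect the counting of UMIs alone, that is, counting error only.

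Droplet methods give each bead a barcode, and most beads never share a droplet with a cell. RNA that leaked from broken cells floats in every droplet and is captured at low level on the beads without a cell, where it is called ambient RNA. A barcode copied with a wrong base looks like another bead, so errors made in bead synthesis, PCR or sequencing also give barcodes with few counts. In a mixture of species the pairing of human and mouse RNA on a barcode, and the resemblance of a barcode to that of a cell, are the usual signs by which these sources are described.

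The human RNA in this background held genes of T cells. Of 15 T cell genes 14 were stored, among them CD3D, a chain of the T cell receptor complex, with 171 counts in the background and 68 in cells, TRBC1, a receptor constant region, with 344 and 144, and CD1E, a lipid antigen presenting protein of thymocytes, with 513 and 155. The list took 0.390% of human background counts (0.372 to 0.409) and 0.421% of those in cells (0.389 to 0.454). Of 10 plasma cell genes 5 were stored, with 0.0465% in the background and 0.0127% in cells. Nearly all of these counts were of MZB1, a chaperone of antibody secretion, with 176 and 18 counts. XBP1 and PRDM1, the factors that define plasma cells, had 3 counts each in the background and 0 in cells, and none of 7 immunoglobulin light chain genes was stored. These markers go against the myeloma label of the human cells. The study's methods name the human line JJN3 where they describe single-cell work and Jurkat, a T cell leukaemia line, where they describe culture, so the human RNA is called only human here.

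Some background barcodes came in families of near-identical sequence. Those of a pair of genes are shown because these genes were among the highest in the background and had large families. They are not typical. Barcodes with a relative 1 mismatch away that held the same gene were 71.4% for PPAT and 54.8% for NTMT1. The median over the 1057 human genes compared was 35.3%. PPAT, the enzyme that commits to purine synthesis, was stored in 91 background barcodes. These formed 37 families when barcodes 1 mismatch apart were joined, and 41 of the 91 were in the largest of them. Its barcode with most such relatives is given first, and capitals mark the base that differs from it.
PPAT, centre: atgggcagtg
PPAT, relative: aCgggcagtg
PPAT, relative: aGgggcagtg
PPAT, relative: atggAcagtg
PPAT, relative: atggTcagtg
PPAT, relative: atgggTagtg
PPAT, relative: Ctgggcagtg
PPAT, relative: Gtgggcagtg
PPAT, relative: Ttgggcagtg

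NTMT1, a methyltransferase that acts on protein N termini, was stored in 73 background barcodes of 40 families, and 19 of them were in the largest. Its most connected barcode had 8 relatives that also held NTMT1.
NTMT1, centre: ccaggccagc
NTMT1, relative: Acaggccagc
NTMT1, relative: Gcaggccagc
NTMT1, relative: Tcaggccagc
NTMT1, relative: cGaggccagc
NTMT1, relative: ccGggccagc
NTMT1, relative: ccaggAcagc
NTMT1, relative: ccaggGcagc
NTMT1, relative: ccaggccagA

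These 18 barcodes had count sums of 1 to 16. Counted from 1 at the first base, the mismatches fell at positions 1, 2, 5 and 6 for PPAT and 1, 2, 3, 6 and 10 for NTMT1. The same was seen around the largest cell. Its barcode, gaagtaatca, held 33160 counts, of which 5.68% were human, and 29 of the 30 barcodes that differ from it by 1 base were stored. Of these 29, 7 were background, 10 lay between the groups and 12 were among the 1000 cells, and 2.18% of their 7942 counts were human. Of all possible barcodes of 10 bases, 30.9% were stored in the library. Among all 1000 cells, 335 were 1 mismatch from a cell of larger sum. Whether the cells were 1000 independent beads was not tested.

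Background barcodes were very small. The median count sum was 3, against 262 in cells, and 93.5% of the 1121820 stored entries were a value of 1, against 62.0% in cells. Their number did not fall steadily with the sum. There were 71163 barcodes of sum 1, 60951 of sum 2, 40604 of sum 3, 54825 of sum 4 and 19505 of sum 5, so sum 4 stood above both its neighbours. At the upper edge there were 886 barcodes of sum 20, and just outside it 815 of sum 21, with human shares of 36.4% and 36.6%.

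**Figure D1:**
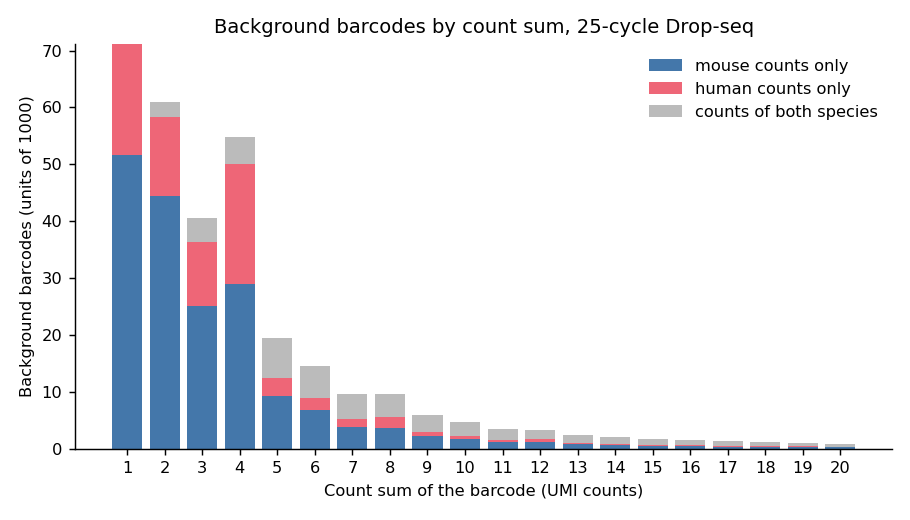
Number of background barcodes (in units of 1000) at each count sum from 1 to 20, split into barcodes with mouse counts only, human counts only or both. The bar at sum 4 (54825 barcodes) stands above those at sums 3 (40604) and 5 (19505), and smaller steps are seen at 8 and 12.

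Where genes could be named, most barcodes of sum 2 to 4 held a lone gene. Of the 54825 barcodes of sum 4, 16436 had all their counts on named human transcripts, and of these 86.6% (86.0 to 87.1) held 1 gene, and 83.7% held it as 1 count on each of 4 different transcripts. At sums 2 and 3 the shares with 1 gene were 87.9% and 86.1%, and at sum 5 the share was 20.6%. A molecule that maps to several transcripts of its gene could be stored on each of them. Over all background barcodes 20.5% of gene entries were on 4 transcripts and 1.31% on more than 4, and the sum over transcripts was 2.18 times the largest transcript (2.30 in cells). A count sum may therefore reflect the number of annotated transcripts of a gene as well as the number of molecules, which was not tested. Genes found alone in barcodes of sum 1 had a median of 2 stored transcripts, and those alone in barcodes of sum 4 a median of 8. A gene held on 4 different transcripts must have at least 4, so this rise was set in part by the selection.

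This ordering was clear for the mitochondrial genome, whose genes code for parts of the respiratory chain and have 1 transcript each. They were 13.7% of the 18490 lone human genes at sum 1 (2534 barcodes), 0.967% of 10961 at sum 2, 0.237% of 8878 at sum 3 and 0.0281% of 14227 at sum 4. By counts, they made up 13.0% of human counts at sum 1 (12.6 to 13.5), 4.88% at sum 2 and 0.824% at sum 4. From sum 5 to 20 the share stayed between 1.29% and 2.28%. Over the whole background it was 2.40% (2.36 to 2.45), between the groups 2.04% (1.98 to 2.11) and in cells 2.72% (2.64 to 2.81). The spread from sum 1 to sum 4 was thus far wider than that between background and cells.

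The background was richer in human counts than the cells were. Human transcripts held 35.8% of its counts (35.7 to 35.9), 35.0% between the groups and 28.8% in cells (28.7 to 29.0). The largest barcode, with 5.68% human counts, held 6.05% of all counts in cells and so lowered their share. The share in the background depended on the sum. It was 27.3% at sum 1 and 25.0% at sum 2, both below the cells, 32.6% at sum 3, 42.9% at sum 4 and from 35.1% to 39.99% at sums of 5 to 20. When barcodes of sum 1 to 4 with counts of 1 species were counted once each, 30.4% were human. Human and mouse genes may differ in how many transcripts each molecule is stored on, and the part of this in the human share was not tested.

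**Figure D2:**
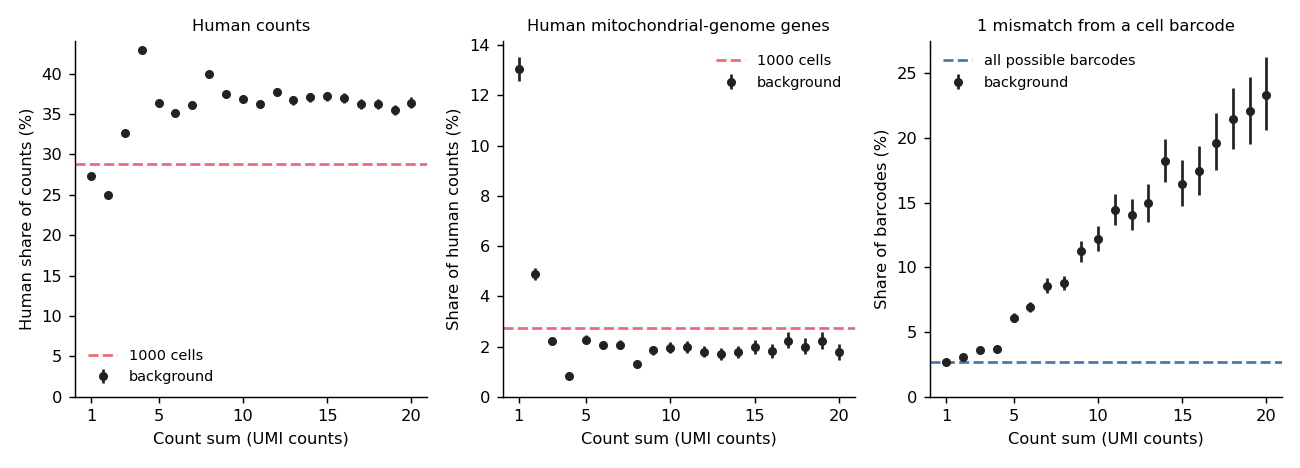
Values at each count sum from 1 to 20, with 95% Clopper-Pearson intervals, of the human share of counts (left, %), the share of human counts on mitochondrial-genome genes (middle, %) and the share of barcodes 1 mismatch from a cell barcode (right, %). Dashed lines are the 1000 cells (left, 28.8%, and middle, 2.72%) and all possible barcodes (right, 2.66%). The human share peaks at sum 4, the mitochondrial share falls from 13.0% at sum 1, and the share near a cell rises from 2.71% to 23.4%.

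Most background barcodes held counts of 1 species, but this share depends on their small size. A barcode of sum 1 can hold only 1 species, and 227543 of the 310367 barcodes had sums of 1 to 4. Mouse counts alone were found in 59.3%, human counts alone in 25.0% and both in 15.8%. Both species were present in 8.83% of barcodes at sum 4, 36.6% at sum 5, 51.8% at sum 10 and 57.6% at sum 20. Among barcodes of sum 11 to 20, 55.7% held both, 32.9% mouse alone and 11.5% human alone. In cells, which are deeper, 94.6% held at least 1 count of each species.

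A minority of the background lay next to cells in sequence. In the background 15651 barcodes (5.04%) were 1 mismatch from 1 of the 1000 cell barcodes, while 27944 of the 1048576 possible barcodes of 10 bases were (2.66%). The share was 2.71% at sum 1, close to that of all possible barcodes, 6.13% at sum 5, 12.2% at sum 10 and 23.4% at sum 20, and it was 27.9% between the groups. So the smallest barcodes, which were the most numerous, lay near a cell at nearly the share of all possible barcodes, and the larger ones well above it.

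The near barcodes resembled the cell beside them. The 3725 background barcodes beside a single cell with at least 90% human counts were 77.9% human by counts (77.4 to 78.4). The 8666 beside a mouse cell by the same limit were 87.5% mouse (87.2 to 87.7), and the 294716 that lay near no cell were 35.9% human. Of the human transcripts stored in barcodes beside a human cell 78.3% were also stored in that very cell, and 7.72% in an average of the same cells. Beside mouse cells the mouse values were 66.8% and 19.8%. Beside human cells the resemblance was weaker at sum 1, where barcodes were 61.8% human (57.1 to 66.4) and shared 68.0% of transcripts with them. Barcodes of sum 1 beside mouse cells were 85.7% mouse, against 85.9% at sums of 2 to 5, and shared 55.5% of transcripts with them.

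Few of these barcodes were stored in the other libraries, which held far fewer barcodes. Of the background barcodes 3.84% were stored in the 30-cycle and 6.17% in the 35-cycle Drop-seq library, where only values of 3 or more were stored, against 92.9% and 96.8% of its cell barcodes. With the same limit on values the 25-cycle library itself would keep 15831 barcodes of sum 20 or less, so these shares do not show which barcodes the libraries had in common. In the 10X libraries of 30 and 35 cycles, whose beads are different, 1.25% and 1.63% of the background and 2.30% and 1.90% of the cell barcodes were stored. All these shares are to be read against the size of the libraries. The Drop-seq libraries of 30 and 35 cycles stored 20705 and 31160 barcodes and the 10X libraries 13857 and 18087, where 1048576 barcodes of 10 bases are possible.

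Within human counts, 441020 in the background were compared with 158049 in cells, each scaled to counts per 1000000 human counts (CPM). The sums that chose the barcodes were made of these same entries, so the ratios are given as a description. A gene was compared when it had 100 or more counts over both groups, and called at a ratio of 2-fold or more on log2((count + 0.5)/total). Of 1057 genes compared, 301 were called higher in the background (28.5%) and 184 lower (17.4%), together 45.9%. The median log2 ratio was 0.10, with quartiles of -0.65 and 1.28. The background had more counts, so genes could reach the minimum through it alone, and 31 had 0 counts in cells while none had 0 in the background. The excess of higher calls was also seen at sums of 10 or less, with 228 higher and 153 lower. It was small or absent at sums of 5 or less and of 6 to 20, and reversed at a sum of 1. Sums of 5 or less gave 125 higher and 126 lower, sums of 6 to 20 gave 121 and 115, and a sum of 1 gave 40 and 222.

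Calls were frequent among genes of few counts and rare among abundant ones. Of 582 genes with 100 to 199 counts 56.7% were called, of 317 with 200 to 499 counts 43.8%, of 75 with 500 to under 1000 counts 17.3%, and of 83 with 1000 or more 3.61%. Genes of few counts were held by a handful of barcodes. The median compared gene was stored in 7 cells, and a median of 41.4% of its counts in cells came from a single cell. In the background it was stored in 55 barcodes of 40 families. Barcodes with a relative 1 mismatch away that held the same gene were a median of 48.3% for genes called higher, 33.9% for genes within 2-fold and 20.8% for genes called lower. These genes were stored in a median of 52, 73 and 28.5 background barcodes. A gene in more barcodes has more possible relatives, and this was not allowed for.

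A second reading was restricted to genes spread over many barcodes, with 20 or more background families and 20 or more cells, a limit set after the values were seen. Of 167 such genes 2 were called higher and 12 lower, which is 8.38%, with a median log2 ratio of -0.23 and quartiles of -0.56 and 0.15. The limit asks for presence in both groups. It leaves out the genes at 0 in cells and 299 of the 301 called higher, so these values describe genes found in both and do not measure how often genes differ.

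**Figure D3:**
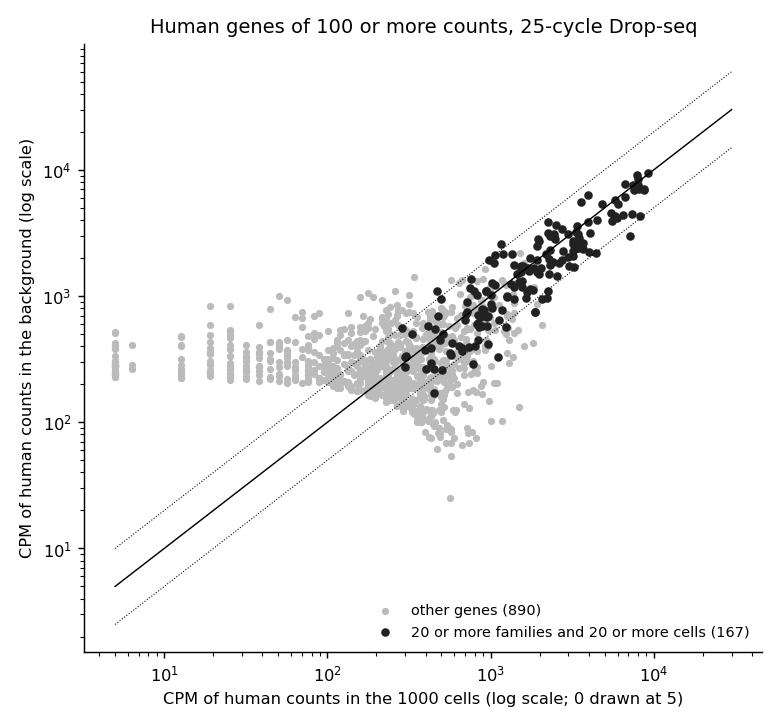
CPM of human counts in the background (y axis, log scale) against the 1000 cells (x axis, log scale, 0 drawn at 5) for 1057 genes. Black points are the 167 genes in 20 or more background families and 20 or more cells, grey points the other 890, the solid line equality and the dotted lines 2-fold. The black points, which had to be present in both groups, lie near the line of equality, and the grey points spread to both sides at low CPM.

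The genes with most background counts code for the translation machinery and actin binding. RPS19, of the small ribosomal subunit, had 4129 counts in the background and 1466 in cells, 9362 and 9276 CPM. RPL10 had 3995 and 1250 counts, for which the log2 ratio was 0.20 (0.10 to 0.29). EEF1A1, which brings aminoacyl-tRNA to the ribosome, had 3740 and 1259 (0.09, -0.00 to 0.18), RPL15 3414 and 1047 (0.22) and TMSB4X, which binds actin monomers, 3330 and 1184 (0.01). They were spread widely, over 817 to 1253 background barcodes and 70 to 120 cells, and no one cell held more than 10.6% of their counts in cells. All 5 stood within 2-fold.

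Among the widely spread genes, those called higher were SNRPB and RPL28. SNRPB, a core protein of the spliceosome (chr20:2461634-2470853 on hg38, minus strand), had 483 counts in 187 background barcodes and 74 in 20 cells, a log2 ratio of 1.22 (0.87 to 1.60). RPL28, of the large ribosomal subunit (chr19:55385932-55403250, plus strand), had 1133 in 322 barcodes and 184 in 26 cells, a ratio of 1.14 (0.92 to 1.37). Just under the limit were ACTG1, a cytoplasmic actin (852 and 154 counts, 0.98), RPL27A (929 and 169, 0.97), NMNAT3, of NAD synthesis (244 and 45, 0.95), HNRNPH1, a splicing regulator (419 and 78, 0.94), and PABPC1, which binds poly(A) tails (606 and 120, 0.85). Against cells of at least 90% human counts SNRPB stood at 1.16 and RPL28 at 0.88, no longer called, while HNRNPH1 (1.15) and NMNAT3 (1.11) passed 2-fold. When families of barcodes were counted in place of counts, RPL28 was in 250 background and 21 cell families (0.92) and SNRPB in 120 and 18 (0.08). By families PABPC1 stood at 0.51, NMNAT3 at 0.36, RPL27A at 0.17 and ACTG1 at 0.11, and HNRNPH1 turned to -0.61, so neither SNRPB, RPL28 nor any of these was called.

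The widely spread genes called lower included 4 ribosomal protein genes. LSM4, a subunit of the U6 small nuclear ribonucleoprotein (chr19:18306236-18323112, minus strand), had 144 counts in 46 background barcodes and 175 in 21 cells, a log2 ratio of -1.76 (-2.09 to -1.44). RPS3 was the most abundant of them, with 1320 counts in 327 barcodes and 1129 in 74 cells, 2993 and 7143 CPM, a ratio of -1.26 (-1.37 to -1.14). RPS9 had 127 and 124 counts (-1.45), RPL14 426 and 351 (-1.20) and RPL10A 961 and 697 (-1.02). EEF1G, a subunit of elongation factor 1, had 329 and 295 counts (-1.32), but another annotated gene overlaps it on the same strand and held 328 and 294 counts, so the reads may be shared.

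Others called lower had roles in chromatin, respiration and metabolism. NUCKS1, a chromatin protein, had 75 and 71 counts (-1.40), UQCR11, of respiratory complex III, 183 and 152 (-1.21), BTF3, which binds nascent peptides, 251 and 196 (-1.12), LDHB, of lactate metabolism, 421 and 326 (-1.11), and CARHSP1, an RNA-binding protein, 486 and 353 (-1.02). In families of barcodes, only NUCKS1 (59 and 20, -1.08) and BTF3 (63 and 23, -1.19) of the named 11 stayed past 2-fold, RPS3 stood at -0.60 (262 and 64), and RPL10A (0.01) and CARHSP1 (0.17) turned to the other side of 0. One cell held 35.4% of the CARHSP1 counts in cells, 35.3% of those of LDHB and 33.6% of those of EEF1G. Against cells of at least 90% human counts, UQCR11 alone of the named 11 was no longer called (-0.73).

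The 12 genes with the highest ratios had no count in any of the 1000 cells, as 31 of the 1057 did. Set against a floor of 3 counts over the cells, NTMT1 (chr9:129608884-129636135) was at least 27.2-fold higher in the background, with 228 counts. Here and below, a fold given as at least is the ratio to that floor. It is not the lower end of an interval, which for NTMT1 was a log2 ratio of 4.46 by counts and 0.75 by families. LGALS3BP, a secreted glycoprotein (chr17:78971238-78979947), had 223 counts in 51 barcodes and was at least 26.6-fold higher. RMDN3, which tethers mitochondria to the endoplasmic reticulum, had 186 counts in 37 barcodes (at least 22.2-fold) and PPAT (chr4:56393362-56435615) 177 in 91 (at least 21.1-fold). RCAN1, an inhibitor of calcineurin, had 176 counts in 38 barcodes, 20 of them in a single family (at least 21.02-fold). CEP290, of the cilium base, had 168 counts in 42 barcodes (at least 20.1-fold).

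The rest of the 12 lay between 127 and 149 counts. VDAC1, the channel of the outer mitochondrial membrane, had 149, ZNF496, a zinc finger protein, 135, KEAP1, which marks the factor NRF2 for degradation, 134, TTC13, a tetratricopeptide repeat protein, 132, SLC16A4, of the monocarboxylate transporter family, 129, and PICALM, of clathrin coats, 127, from at least 17.8-fold down to at least 15.2-fold. Of the 49 TTC13 barcodes 32 were in a single family. The largest family of each held 4 to 41 barcodes. RMDN3 had 30 families for its 37 barcodes and SLC16A4 22 for 29, while TTC13 had 15 for 49 and RCAN1 13 for 38. Counted by families, 10 of the 12 had 20 or more, NTMT1 with 40 against 0 and PPAT with 37 against 0. All 10 were called higher, but with 0 in cells any gene at that minimum would be. The intervals of KEAP1, SLC16A4 and LGALS3BP began below 0, at -0.24, -0.17 and -0.10. All 12 were also stored between the groups, with 4 to 62 counts, and the largest value of any was 51 counts of RCAN1 in a barcode of sum 61.

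Among the 12 genes with the lowest ratios, 1 cell held at least 69.8% of the counts in cells for 6. RDH11, a retinol dehydrogenase (chr14:67676800-67695793), had 11 background counts and 89 in cells, a log2 ratio of -4.44 (-5.55 to -3.59), and 81 of the 89 were in 1 cell. UBXN2B, a partner of the p97 ATPase, had 24 and 91 counts with 90 in 1 cell, and NUMA1, of the mitotic spindle, 40 and 114 with 112 in 1 cell. HDGFL2, a chromatin reader, had 30 and 117 with 96 in 1 cell. TIMM17B, of mitochondrial protein import, had 33 and 128 with 96 in 1 cell. ZNF236, a zinc finger protein, had 45 and 159 with 111 in 1 cell.

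The others were less concentrated. In OCIAD1, CRYZL1, ANKRD13A, ADSL, TRAPPC3 and C11orf58 the cell with most counts held from 22.3% (C11orf58, 27 of 121) to 64.2% (ANKRD13A, 68 of 106) of those in cells. OCIAD1, of mitochondrial membranes, had 58 background counts and 236 in cells (-3.50), and CRYZL1, an oxidoreductase-like protein, 45 and 187 (-3.52). ADSL, which acts later than PPAT in purine synthesis, had 36 and 115 (-3.14). In 5 of the 12 (CRYZL1, ANKRD13A, ZNF236, ADSL and TRAPPC3) that cell was the same human barcode of 5859 counts. Counted by families, 6 of the 12 reached the minimum of 20, and all 6 were called lower. C11orf58 stood at -2.17 with 18 background and 13 cell families, TRAPPC3 at -1.46, OCIAD1 at -1.28, and CRYZL1, ANKRD13A and ZNF236 at -1.13, and of these intervals that of C11orf58 alone did not reach 0.

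**Figure D4:**
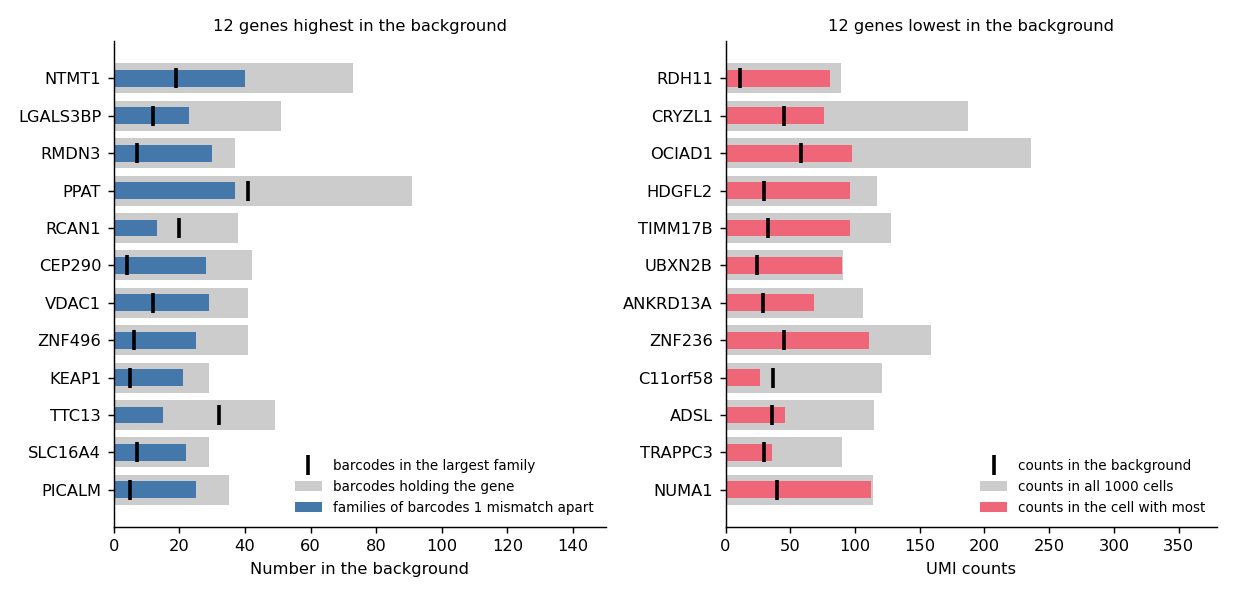
Left, for the 12 genes highest in the background, the number of background barcodes that held the gene (grey), their families of barcodes 1 mismatch apart (blue) and the size of the largest family (tick). Right, for the 12 lowest genes, UMI counts in the 1000 cells (grey), in the cell with most (red) and in the background (tick). PPAT has 91 barcodes in 37 families with 41 in 1 family, and for UBXN2B and NUMA1 a single cell holds 90 of 91 and 112 of 114 counts.

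Counts of calls by function are to be read against the 28.5% of all 1057 genes called higher and the 17.4% called lower. The ribosomal proteins took a slightly smaller share of counts in the background. The 47 genes of the large subunit took 12.8% of human counts there (12.7 to 12.9) and 13.9% in cells (13.7 to 14.03), with 1 called higher (RPL28), 2 lower (RPL14, RPL10A) and a median log2 ratio of -0.14. The 33 of the small subunit took 9.10% (9.01 to 9.18) and 10.9% (10.8 to 11.1), with 1 higher (RPS10, 284 and 41 counts), 2 lower (RPS3, RPS9) and a median of -0.27. The median of all 1057 genes was 0.10, and that of the 167 widely spread genes, to which 43 and 32 of these belong, was -0.23. Processed copies of ribosomal genes share reads with them, so single values are uncertain.

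Mitochondrial genome genes stayed within 2-fold. All 13 were stored and 12 compared, with 0 called and a median of -0.25. MT-CO1 and MT-CO3, core subunits of cytochrome oxidase, had 2694 and 1053 counts (-0.13) and 1329 and 367 (0.37). MT-ND1 and MT-ND2, subunits of complex I, had the highest and lowest ratios, with 221 and 52 counts (0.60) and 162 and 105 (-0.86). Of 22 nuclear-encoded respiratory genes compared, 2 were higher (ATP5MG 1.68, UQCRH 1.06) and 3 lower (ATP5PO -1.76, UQCR11 -1.21, COX7B -1.06), with a median of -0.23.

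HNRNP and SRSF genes, which code for splicing regulators, took a larger share of counts in the background. Of 15 compared, 3 were called higher and 1 lower, which is no more often than the 28.5% and 17.4% of all genes. They took 1.30% of background (1.27 to 1.33) and 0.919% of cell counts (0.872 to 0.967), with a median of 0.33. SRSF5 (108 and 3 counts, 3.47), HNRNPD (432 and 30, 2.35) and SRSF11 (372 and 42, 1.65) were higher and SRSF7 (50 and 68, -1.92) lower. The 5 of them that were widely spread were all within 2-fold, and by families HNRNPA2B1 stood at 0.06 and HNRNPH1 at -0.61. These names describe the proteins, and where in the cell the RNAs lay was not measured. The 13 nuclear noncoding RNAs of another list were not stored at all.

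Actin genes also took a larger share. Of 15 compared 3 were higher (TAGLN2 2.83, LCP1 1.72, ARPC2 1.30) and MYL12B was lower (-1.25), again no more often than all genes (28.5% and 17.4%), with 2.11% of background and 1.77% of cell counts and a median of 0.52. ACTB, the other cytoplasmic actin, stood at -0.01 with 958 and 346 counts. Chaperones took a smaller share. Of 11 compared, DNAJA1 alone was called (1.41) and 8 stood below 0, with 1.04% and 1.40% of counts and a median of -0.49. HSP90AB1, a cytosolic chaperone, had 1163 and 584 counts (-0.49) and HSPD1, of mitochondria, 663 and 358 (-0.59).

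The remaining groups had calls in both directions or few calls, beside 28.5% higher and 17.4% lower over all genes. High mobility group and histone chaperone genes had 2 of 16 higher (ANP32A 1.47, HMGN1 1.44) and 2 lower (H3-3B -2.22, HMGA1 -1.26). Translation factors had 1 of 15 higher (EIF4A2 1.05) and 3 lower (EEF1G, BTF3 and EIF3K, -1.18). Proteasome genes had 2 of 13 higher (PSMB5, with 100 counts and 0 in cells, and PSMA1 1.72) and 4 lower, of which PSME2 was lowest (-1.41). Glycolysis genes had 0 of 9 higher and 2 lower (PGK1 -1.15, LDHB), while GAPDH stood at -0.41 with 1915 and 912 counts. Endoplasmic reticulum genes had 2 of 8 higher (CALR 1.34, SERP1 1.17) and 2 lower (SPCS1 -2.53, SPCS2 -1.04).

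Smaller lists gave a few calls each, beside the same shares of all genes. Cell cycle genes had 1 of 8 higher (MCM3 1.97) and 1 lower (CKS1B -2.40), and T cell genes 1 of 8 higher (ZAP70 2.07) and 2 lower (CD3G -1.24, CD7 -1.001). Of 5 ferritin and thioredoxin genes PRDX1 was higher (1.66), and FTH1, the ferritin heavy chain, stood at 0.24 with 1286 and 389 counts. B2M, the light chain of MHC class I, was the lone gene compared of its list (174 and 116, -0.90). MZB1 was the lone plasma cell gene (1.77). The lists of red cell, platelet and serum genes and of mitochondrial ribosomal RNA and humanin-like genes had no stored member.

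**Figure D5:**
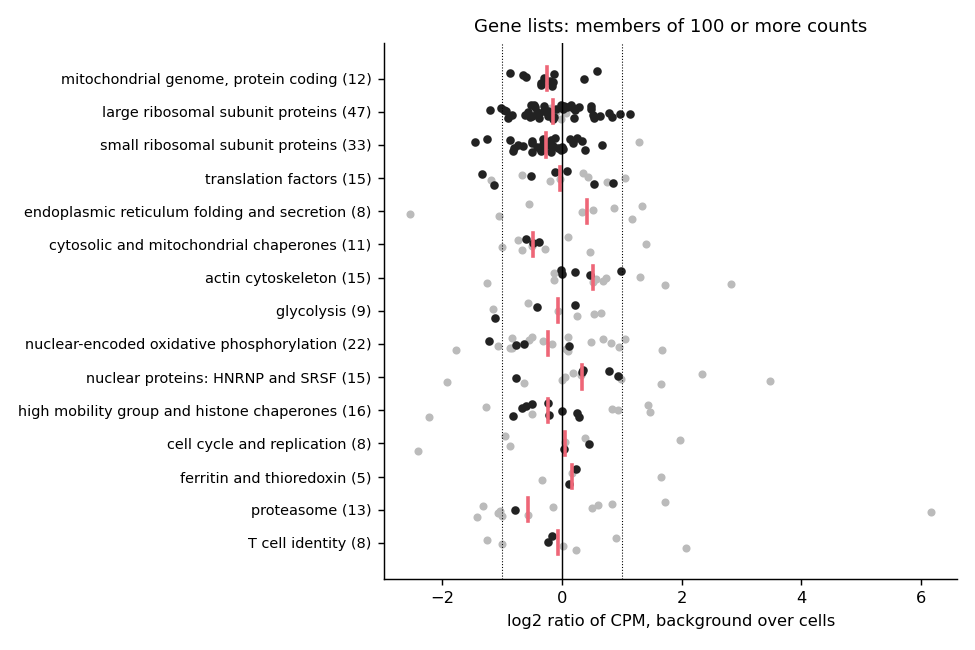
Log2 ratio of CPM, background over cells, for members of 15 gene lists with 3 or more genes of 100 or more counts (number in brackets). Black points are genes in 20 or more background families and 20 or more cells, grey points other genes, red lines medians, and dotted lines 2-fold. The black points of the ribosomal lists lie around and mostly below 0, and the points farthest from 0 are grey.

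Long transcripts were more common in the background. Those of 5000 bases or more took 9.19% of human background counts and 7.76% of those in cells, a ratio of 1.18 (1.16 to 1.21), and those of 2000 to under 5000 bases 27.9% and 25.4% (1.10). Those of 500 to under 1000 bases took 25.8% and 28.6% (0.90), and those under 500 bases 2.97% and 3.32% (0.89). The median count lay on a transcript of 1585 bases in the background, 1537 between the groups and 1420 in cells. Mean GC content was nearly equal, 48.5% and 48.7%. Since lengths are those of annotated transcripts, how far each read reached along them was not measured.

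By kind of transcript the largest annotated classes were nearly alike, and some smaller ones were not. Coding transcripts took 71.5% in the background and 72.4% in cells, retained introns 6.50% and 6.23%, and transcripts subject to nonsense-mediated decay 6.97% and 7.29%. Processed pseudogenes took 0.864% and 0.639% (ratio 1.35, 1.26 to 1.45), and 1 of them, ENSG00000225840, had 2805 and 629 counts (log2 0.68). Unprocessed pseudogenes took 0.254% and 0.316% (0.81, 0.72 to 0.90), and non-stop decay transcripts 0.0537% and 0.0867% (0.62, 0.50 to 0.77). Identifiers with no match in the annotation took 9.59% and 8.66%. Of 925 human transcripts compared, 145 were called higher (15.7%) and 89 lower (9.62%), together 25.3%. PPAT led again, with 136 counts on its coding transcript of 3682 bases and 0 in cells (at least 16.2-fold), followed by a transcript of RBM26, an RNA-binding protein, with 100 and 0 (at least 11.9-fold). The next were transcripts of TCF12, a transcription factor (114 and 1 counts, log2 4.77, 2.85 to 10.67), and SYNCRIP, of mRNA metabolism (104 and 1, with 68 of 88 barcodes in a single family). The lowest were both transcripts of CKS1B, a cell cycle regulator (37 and 69 counts, -2.37, and 37 and 68, -2.35), and 1 of H3-3B, a replacement histone (49 and 89, -2.33).

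Mouse transcripts showed the same pattern at greater depth, with 792066 background and 390078 cell counts. Of 1778 compared, 271 were called higher (15.2%) and 127 lower (7.14%), together 22.4%, with a median of 0.03. Of 1209 in 20 or more background families and 20 or more cells, 45 were higher and 106 lower, which is 12.5%, with a median of -0.14, again among features that had to be present in both groups. Genes are not paired with mouse identifiers in the files, so only identifiers can be given. ENSMUST00000039655.3 had 180 counts in 170 background barcodes of 94 families and 0 in cells, at least 29.5-fold higher. ENSMUST00000044352.8 had 105 in 82 barcodes, 41 of them in a single family, and 0 in cells (at least 17.2-fold). The lowest was ENSMUST00000122807.8, with 29 counts in the background and 97 in 30 cells (-2.75, -3.42 to -2.15), then ENSMUST00000026487.6, with 33 and 86 in 28 cells (-2.39). These low transcripts were spread over more cells than the low human genes, with at most 27 counts in 1 cell. The share of barcodes with a relative holding the same transcript was a median of 44.9% for transcripts called higher and 19.2% for those called lower. These were stored in a median of 103 and 58 background barcodes, which was not allowed for.

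The Drop-seq libraries of 30 and 35 cycles gave a second view, with their 500 largest barcodes as cells. They are not independent, since 454 and 457 of these 500 barcodes were also cells at 25 cycles. Only values of 3 or more were stored in them, so the 25-cycle library, with its 1000 cells, was also treated that way, which left 15831 background barcodes. The 30-cycle library had 16660 and the 35-cycle library 24696. In these 3 sets the human share was higher in the background, 32.7% against 29.6%, 32.9% against 29.1% and 32.9% against 28.5%. Human genes called were 44.1% of 261, 34.9% of 169 and 41.3% of 269, and here more were lower than higher (89 and 26, 43 and 16, 73 and 38). The share on the mitochondrial genome was above that of cells in each of the 3, 3.36% against 3.02%, 3.04% against 2.60% and 3.25% against 2.67%, the other way round from the full 25-cycle library.

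Several genes stood on the same side in these libraries. NTMT1 had 65 and 38 background counts at 30 and 35 cycles and PPAT 33 and 55, all with 0 in cells. Of the barcodes that held NTMT1, 7 of 8 and 6 of 6 also held it at 25 cycles, and of those with PPAT 5 of 5 and 10 of 12. SNRPB was again higher, with 116 and 27 counts (2.80) and 128 and 73 (1.41), and RPL28 stood at 1.65 and 0.62. LSM4 had 0 counts in the background and 50 in cells at 30 cycles, and 18 and 105 at 35 (-1.91). RPL14 stood at -2.82 and -1.14, RPL10A at -1.90 and -1.59 and LDHB at -1.22 and -1.23. RPS3 stood at -1.11 and -0.16. RPS19, the most abundant gene, which was level at 25 cycles (0.01), stood at -0.87 and -1.18. UBXN2B, among the lowest at 25 cycles, had 8 counts against 0 in cells at 30 cycles and 23 against 19 at 35.

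The ribosomal, splicing and actin groups stood on the same side as at 25 cycles. At 30 and 35 cycles ribosomal genes of the large subunit took 9.33% and 9.48% of human background counts against 14.1% and 13.99% in cells, and those of the small subunit 7.22% and 6.92% against 11.4% and 10.9%. HNRNP and SRSF genes took 1.31% and 1.28% against 0.836% and 0.860%, and actin genes 2.69% and 2.34% against 1.96% and 1.76%. Plasma cell genes took 0.214% and 0.190% of the background and 0.00672% and 0.00679% of cells, chiefly MZB1 with 87 and 99 counts against 5 and 7. Other groups changed side. The mitochondrial genome did so as given above. Endoplasmic reticulum genes took 0.498% and 0.429% of the background against 0.244% and 0.257% of cells, and cell cycle genes 1.15% and 1.01% against 0.797% and 0.824%, while at 25 cycles both were slightly lower in the background. With the 25-cycle library held to values of 3 or more, these 3 groups turned in the same way, with the mitochondrial genome at 3.36% against 3.02%, endoplasmic reticulum genes at 0.415% against 0.384% and cell cycle genes at 1.26% against 0.999%.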

How the data were processed

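Single-cell RNA was measured in 1 Drop-seq library of 25 PCR cycles, with the 30- and 35-cycle libraries beside it. The deposited matrices give, for every Ensembl transcript and barcode, raw UMI counts as whole numbers. The authors used Guppy for base calling, located the tags next to the poly(A) tail, aligned to transcripts of both species with minimap2, and collapsed UMIs by UMI-tools or by a script for homotrimers. Which of these made the files is not given in the sources used here. The submitters' processing notes name hg38. Stored barcodes have 10 bases, so different beads may share 1.

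Of 28533 human identifiers 25940 (90.9%) matched GENCODE 44 without version. Counts were summed per gene, pooled over the barcodes of a group and scaled within species. Genes with 100 or more counts over both groups were compared with a pseudocount of 0.5, and a ratio of 2-fold was called, on size alone. Shares have Clopper-Pearson and ratios exact conditional binomial intervals. Since entries repeat over transcripts and families, the intervals are too narrow. The floor for 0 was 3 counts over the pooled cells. No doublet caller was run and no other filter on barcodes was used. The named genes were the 12 highest and 12 lowest ratios, the 5 with most background counts and the extremes of each list, in human genes; fewer transcripts are printed than the rule takes. The members and the gene lists were chosen with earlier results of these data known. Calls were checked on simulated data with known folds, drawn as independent counts per gene. That check does not cover counts that repeat over transcripts, families or single cells. Alternatives changed the count sums, the cells, the minimum, the scaling, the pseudocount, the stored values and the unit counted. The software was scipy 1.17.1, pandas 2.3.3 and numpy 2.4.6 under Python 3.11.15, and matplotlib 3.10.9 for figures.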

Additional observations from a re-analysis of the deposited data

How the results depend on the processing

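No paired analysis was possible because each group has 1 library. Human genes called were 485 of 1057, and 519 of 982 against cells of at least 90% human counts. They were 251 of 626 with count sums of 5 or less, 262 of 279 at a sum of 1, 236 of 644 at sums of 6 to 20, 1041 and 155 with minimums of 50 and 200 counts, 115 with values below 3 left out, 112 of 424 with the largest transcript per gene and barcode, and, chosen after seeing the data, 14 of 167 widely spread genes. Human transcripts called were 234 of 925. They were 140, 82 and 47 at sums of 10 or less, 5 or less and 6 to 20, 958 and 37 with minimums of 50 and 200, 76 without values below 3, 55 if widely spread and 991 of 3557 by barcode families. Mouse transcripts called were 398 of 1778. They were 246 and 139 at sums of 5 or less and 6 to 20, 1429 and 85 with minimums of 50 and 200, 141 without values below 3, 151 if widely spread and 1520 of 5545 by barcode families. At a sum of 1 the counts for transcripts were 252 and 574, of 261 human and 625 mouse transcripts, few of them called in the whole background (20 and 48). Other settings kept these counts within 1.5 times.

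The human share of 35.8% was 35.5%, 34.7%, 27.3% and 36.9% at sums of 10 or less, 5 or less, 1 and 6 to 20. It was 35.9% without barcodes near a cell and 32.7% without values below 3. Of barcodes with 1 species and sums of 1 to 4, each counted once, 30.4% were human. The mitochondrial share of 2.40% was 2.55%, 2.96%, 13.0% and 1.86% at the sums listed first and 3.36% without values below 3. The ratio of 1.18 for transcripts of 5000 bases or more was 1.22 at sums of 5 or less, 1.65 at 1, 1.15 at 6 to 20 and 1.32 without values below 3. The share of genes called, 44.1% without values below 3, was 34.9% at 30 cycles. Of 807 values of named genes under an alternative, 657 stayed within the interval of the reported value. The sign changed in 33, of which 12 were at a sum of 1, 6 without values below 3 and 3 by families. Of genes called in the report these were RPL28 at a sum of 1 (-3.18) and, by families, CARHSP1 (0.17) and RPL10A (0.0078). The cause of these changes was not tested. At this depth the median human gene compared was stored in 7 cells, so values of genes of few counts can rest on 1 cell or family.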
